A study of Mus musculus with 24 samples.

Results

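The clustered protocadherins are cell adhesion proteins encoded by 3 neighbouring gene clusters, Pcdha, Pcdhb and Pcdhg, on chromosome 18 of the mouse. Members were found by symbol after matching the Ensembl identifiers of the count files to GENCODE M21 (GRCm38), and 58 of 55487 identifiers qualified. They comprise 12 alternate alpha members, 22 beta members, 12 gamma A members, 7 gamma B members and the 5 C-type members Pcdhac1, Pcdhac2, Pcdhgc3, Pcdhgc4 and Pcdhgc5. On chromosome 18 they span bases 36930184 to 37841873 (GRCm38), from Pcdha1 to Pcdhgc5, whose constant exons end the gamma cluster. Identifiers ENSMUSG00000007440 and ENSMUSG00000102206 share the symbol Pcdha11. The gamma B member Pcdhgb8 is annotated as a polymorphic pseudogene, and the other members as protein-coding. The family was chosen for its fall in the bulbectomised hippocampus. Pcdhgc5, Pcdhga5 and Pcdhga4 had been seen there among the genes that fell most clearly. The hippocampal contrast is therefore given below as a description without p-values, and passing the threshold of its fit is no evidence.

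The mice were wild-type and underwent either olfactory bulbectomy, in which the olfactory bulbs are taken out, or a sham operation, and RNA of their hippocampus, cortex and cerebellum was sequenced. Bulbectomy and sham libraries numbered 4 and 5 in hippocampus, 3 and 5 in cortex, and 2 and 5 in cerebellum, 24 in all. The sources used here do not state age, sex, time after surgery or whether each library came from a separate animal, so p-values measure the spread between these libraries. The cortex bulbectomy libraries carry the numbers 1, 2 and 4.

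Each neuron switches on a small, largely random set of alternate alpha, beta and gamma promoters, a choice made through CTCF, cohesin and DNA methylation, while the C-types are under more regular control. The proteins form dimers that bind like to like between membranes, so that branches of the same cell recognise and avoid each other. Alpha and gamma transcripts splice their own variable exon to constant exons shared within the cluster, and beta genes have no such constant exons. The C-types have roles of their own, among them survival of neurons for Pcdhgc4, serotonergic axon spacing for Pcdhac2, dendrite growth and Wnt signalling for Pcdhgc3, and binding to GABA-A receptors for Pcdhgc5.

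Levels are CPM, assigned reads divided by a library size that was scaled by TMM over all 24 libraries, and a level compared between genes is CPM per kilobase (kb) of exon that no other gene covers on either strand. Libraries held 3255661 to 138963332 assigned reads, of which 1077 to 59743 fell on members. The shallowest and the deepest were hippocampus sham 1 and sham 4. The other 22 held 8145624 to 20230673, and 3 reads in a library correspond to 0.0182 to 0.884 CPM, counting error alone. Marker genes of striatal medium spiny neurons summed to 3112 and 4100 CPM in hippocampus sham 1 and 2, against 300 to 566 in the other 7, and dentate granule cell markers summed to 76.0 CPM in sham 2 against 183 to 295. Cerebellar granule cell markers summed to at least 1647 CPM in each cerebellar library and at most 154 elsewhere.

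The constant exons, 2860 bases in the alpha and 2119 in the gamma cluster, belong to several genes at once, and reads falling wholly on them count for none. The counts therefore come from the variable exons and, for beta, from single genes. Although the library kit keeps strand, all 26 protein-coding genes of at least 500 own-strand bases that lie wholly under genes of the opposite strand have 0 reads in all 24 libraries, against 15.24% of 21143 genes with room on both strands, so the counts behave as if strand had not been used. Pcdhga10 is one of these, with 0 reads throughout, and its level says nothing of its transcription. Other members lie partly under a gene of the opposite strand, among them Pcdhb12 (63.51% of its exon bases), Pcdhga11 (29.04%), Pcdhgc3 (28.35%) and Pcdhgb7 (16.36%), and their counts are less certain. Pcdha4 had 2 reads in all libraries together, Pcdha11 (ENSMUSG00000102206) 1 and Pcdhb1 14. The remaining 54 members are described below.

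In sham hippocampus and cortex the family was led by 2 C-types, and in sham cerebellum by Pcdhgc3. Pcdhgc3 had 23.9 CPM per kb in hippocampus, 21.8 in cortex and 42.9 in cerebellum, and Pcdhgc5 had 15.4, 21.3 and 2.70. In cortex these levels did not differ beyond their spread over libraries. In cerebellum Pcdhgc5 lay below many members, among them Pcdhga4, Pcdhgb7, Pcdhga6, the C-type Pcdhac2 (5.51) and the beta member Pcdhb9 (3.20). Divided by all exon bases, shared ones included, the cortical levels were 7.21 for Pcdhgc3 and 12.9 for Pcdhgc5, so the order of this pair depends on the length used (Pcdhgc3 was at 11.7 per kb of bases unshared on its own strand). Among the gamma A members Pcdhga4 (8.24, 7.33 and 11.6 CPM per kb in the same order of tissues) and Pcdhga6 (7.07, 7.28 and 5.68) were highest, and among the gamma B members Pcdhgb7 (3.31, 3.37 and 6.16) and Pcdhgb6 (2.70, 2.24 and 4.43).

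The alternate alpha and the beta members were the lowest. The median level over the 12 alternate alpha members was 0.289, 0.464 and 0.447 CPM per kb in hippocampus, cortex and cerebellum, and over the 22 beta members 0.657, 0.605 and 0.670. The median was 2.44, 2.39 and 2.77 over the 11 gamma A members with measurable exon and 1.65, 1.43 and 1.79 over the 7 gamma B members. Pcdha12, which lies next to the alpha C-types, was the highest alternate alpha member at 1.62, 2.36 and 1.18 CPM per kb, and Pcdhb9 the highest beta member at 3.19, 2.95 and 3.20. The C-type Pcdhac1, at 0.475, 0.811 and 0.737, lay among the alternate members. The order of members was much alike in the 3 tissues, with Spearman's rho of 0.97 between hippocampus and cortex, 0.95 between hippocampus and cerebellum and 0.94 between cortex and cerebellum over 57 members, as a description of means that share each gene's exon length and counting.

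**Figure D1:**
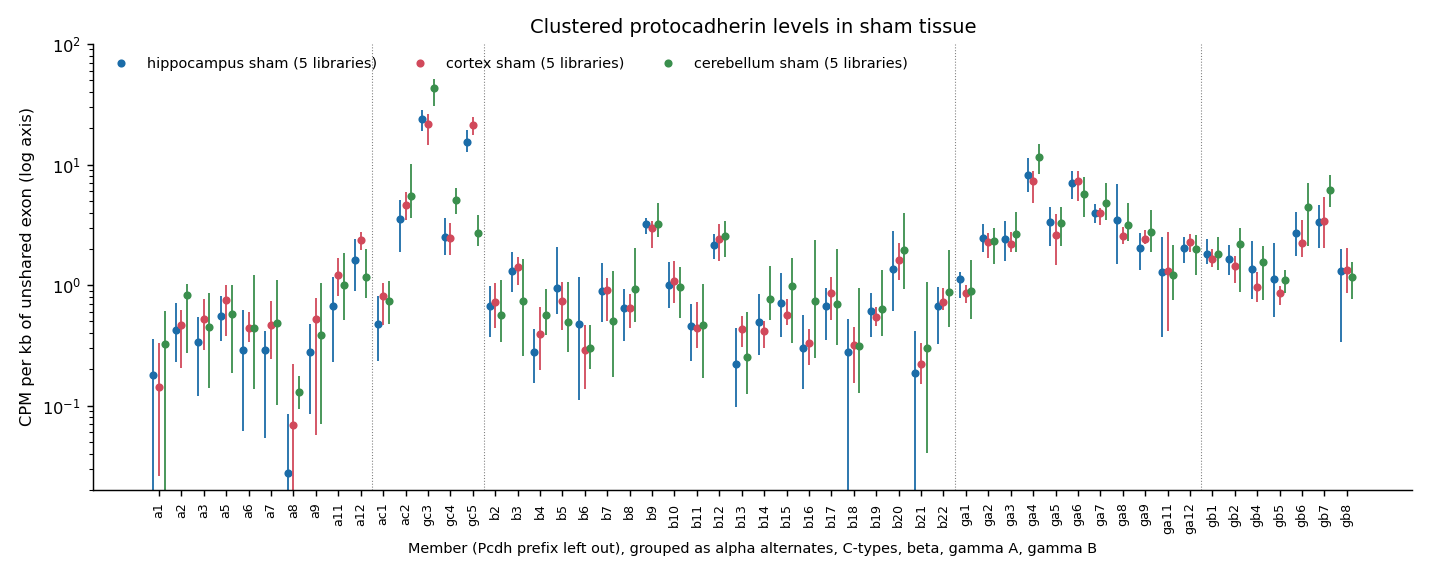
Level of 54 members in sham libraries, in CPM per kb of unshared exon on a log axis. Points are means over the 5 sham libraries of a tissue and lines run from the lowest to the highest library (cut at the lower axis limit). Pcdhgc3 and Pcdhgc5 are highest in hippocampus and cortex, and in cerebellum Pcdhgc3 is highest and Pcdhgc5 lies below many members.

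Between sham tissues the largest difference of the family was that of Pcdhgc5, which had 0.119 times its cortical level in cerebellum. Its CPM, in the order of the replicate numbers as in all lists below, was 114, 98.2, 106, 92.2 and 80.3 in cortex, 68.1, 64.6, 89.2, 75.1 and 58.7 in hippocampus and 11.1, 13, 17.7, 9.71 and 10.8 in cerebellum. Each cerebellar library lay below each library of the other tissues. Pcdhgc5 was lower in cerebellum than in cortex by a log2 fold change of -3.07 ± 0.18 (SE; adjusted p = 1.9e-09, edgeR quasi-likelihood test) and than in hippocampus by -2.58 ± 0.17 (edgeR adjusted p = 1.3e-08). The other gamma C-types went the opposite way. Pcdhgc3 had 84.4, 55.8, 93.9, 66.0 and 90.1 CPM in cerebellum against 47.5, 26.5, 45.4, 43.0 and 35.8 in cortex and 36.8, 45.6, 52.0, 48.3 and 34.8 in hippocampus, without overlap, and was higher by 0.89 ± 0.19 and 0.77 ± 0.19 (edgeR adjusted p = 0.0015 and 0.0052). Pcdhgc4 had 22.1, 13.5, 22.2, 14.6 and 15.3 CPM in cerebellum against 8.13, 6.16, 11.4, 8.98 and 7.68 and 6.19, 8.55, 12.4, 10.4 and 6.19, again without overlap, and was higher by 0.96 ± 0.23 and 0.93 ± 0.24 (edgeR adjusted p = 0.0042 and 0.0068). Of all reads on the family, Pcdhgc5 took 27.4 ± 2.57% (SD, n = 5) in cortex, 21.5 ± 2.76% in hippocampus and 3.73 ± 1.21% in cerebellum, and Pcdhgc3 11 ± 1.55%, 13.2 ± 2.50% and 22.8 ± 4.04%.

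The alpha C-types did not pass this test between tissues without pairing of the libraries. Pcdhac2 had 18.0, 10.5, 14.8, 13 and 13 CPM in cortex, 15.3, 5.66, 12.1, 13.5 and 6.61 in hippocampus and 30.4, 10.9, 16.8, 12.8 and 12.4 in cerebellum, so that the tissues overlapped. Its log2 fold change from cortex to cerebellum was 0.18 ± 0.32 (edgeR adjusted p = 0.7). From hippocampus to cerebellum it was 0.59 ± 0.32 (edgeR adjusted p = 0.19) and, with the sham number as a replicate block, 0.56 ± 0.20 (edgeR adjusted p = 0.039), so the block brings Pcdhac2 past the threshold. Pcdhac1 did not pass with the block.

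**Figure D2:**
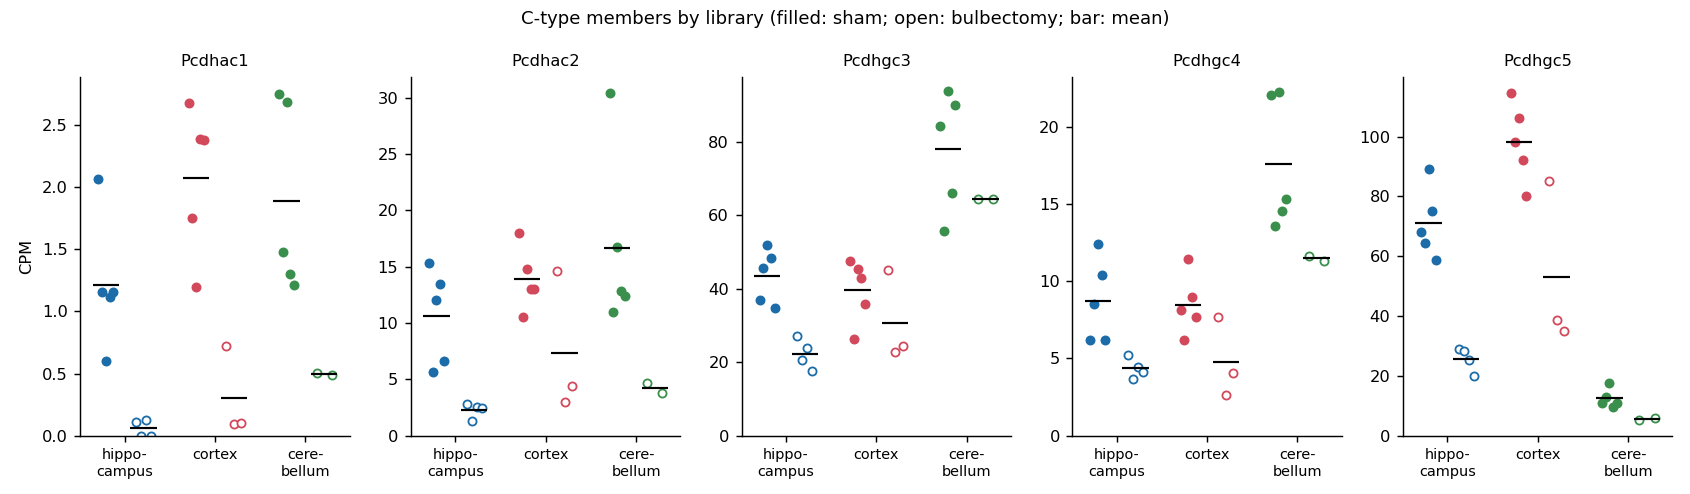
CPM of the 5 C-type members in each library, by tissue. Filled points are sham libraries, open points bulbectomy libraries and bars group means; Pcdhgc5 is low in cerebellum where Pcdhgc3 and Pcdhgc4 are high, and 1 of the 3 cortex bulbectomy libraries lies near the sham libraries in every panel but that of Pcdhac1.

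In all, 7 of 53 members tested differed between cerebellum and cortex, 5 higher and 2 lower, where 34.7% of 15142 genes were called (17.9% higher and 16.8% lower). Between cerebellum and hippocampus 4 members differed, 3 higher and 1 lower, where 28.4% of genes were called (12.9% higher and 15.5% lower). Both shares of the members lie below those of all genes. The gamma B member Pcdhgb7 was higher in cerebellum than in either tissue, by 0.79 ± 0.29 against cortex and 0.83 ± 0.29 against hippocampus (edgeR adjusted p = 0.043 for each). Its CPM was 13.1, 8.07, 8.49, 11.7 and 14.8 in cerebellum, 6.17, 3.70, 5.72, 5.40 and 9.75 in cortex and 4.13, 3.70, 7.17, 6.75 and 8.39 in hippocampus, and the tissues overlapped slightly. Pcdhgb6 and Pcdhga4 were higher in cerebellum than in cortex by 0.90 ± 0.31 and 0.58 ± 0.21 (edgeR adjusted p = 0.031 and 0.046), and Pcdha12 was lower, at a log2 fold change of -1.08 ± 0.30 (edgeR adjusted p = 0.011). Pcdha12 had 3.89, 1.56, 2.37, 1.52 and 2.08 CPM in cerebellum against 4.22, 4.86, 5.34, 3.79 and 4.69 in cortex, where only cerebellum sham 1 reached the cortical range. Pcdhgb7, Pcdhga4 and Pcdhgb6 lost these calls under part of the alternatives: Pcdhgb7 under 14 of 26 against hippocampus and 11 of 26 against cortex, Pcdhga4 under 13 of 26 and Pcdhgb6 under 6 of 26. Pcdhgc3, Pcdhgc4, Pcdhgc5 and Pcdha12 kept theirs in all 26.

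Sham numbers pair the hippocampal and cerebellar libraries by the correlation of their deviations (0.23 to 0.40 for the 5 numbers). With the number as a replicate block 8 members differed between these tissues, where 35% of genes did, 4 in each direction: Pcdhac2, Pcdhgb7, Pcdhgc3 and Pcdhgc4 higher, and Pcdhb3, Pcdhb7, Pcdhga6 and Pcdhgc5 lower. Cerebellum sham 1 stood high for many members, and without it 8 members were called against hippocampus (6 lower), where 39.1% of genes were, and 13 against cortex (8 lower), where 50.2% of genes were. Calls against cortex numbered 4 without cortex sham 3 or 4 or cerebellum sham 4 or 5, where 4617 to 4712 genes were called. Between cortex and hippocampus 0 of 53 members were called by edgeR (2 at an unadjusted p under 0.05, and 0 by DESeq2), where 3.30% of genes were. Pcdhgc5, the member of smallest p, was 0.49 ± 0.16 from hippocampus to cortex (edgeR adjusted p = 0.14), followed by Pcdhac1 at 0.85 ± 0.38 and Pcdha11 at 0.79 ± 0.42.

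The non-clustered protocadherins, single genes of the same superfamily, were compared in the same way. Of 11 tested, 9 were called lower in cerebellum than in cortex and 8 than in hippocampus, with 0 called higher. Of all genes 16.8% and 15.5% were called lower. Against cortex 11 had negative fold changes, and against hippocampus 10 did and 1 was above 0. Their median log2 fold change was -1.90 and -1.66. The median over the 53 clustered members was 0.04 and 0.16, and over all genes 0.06 and 0.05.

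After bulbectomy, the level of the family was lower in each hippocampal library than in each sham library. The summed level of the members was 157, 136, 147 and 130 CPM in the 4 bulbectomy libraries and 394, 283, 361, 362 and 270 in the 5 sham libraries, 143 ± 11.7 against 334 ± 54.2 (SD), without overlap. Of the 42 members tested, 41 had a negative log2 fold change, with a median of -1.23 against 0.02 over all genes and a range of -4.13 to 0.01. The other 16, among them 10 alternate alpha and 5 beta members, had too few reads to be tested. The fold changes of 12 members passed the threshold of the edgeR fit, each downward, and 0 upward, where 1.55% of 13985 genes did (1.0% downward). In 20 of the 42, each bulbectomy library lay below each sham library, a pattern shown by 5.43% of all genes tested. These counts come from the contrast that chose the family, and nothing is read from them. In tissue RNA, fewer cells of a type and less RNA per cell cannot be told apart.

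All 5 C-types had their bulbectomy libraries below each sham library. Pcdhgc5 had 29.0, 28.4, 25.3 and 19.8 CPM after bulbectomy and 68.1, 64.6, 89.2, 75.1 and 58.7 after sham, a log2 fold change of -1.44 ± 0.18 (SE). Pcdhac2 had 2.78, 1.35, 2.53 and 2.42 against 15.3, 5.66, 12.1, 13.5 and 6.61, at -2.18 ± 0.35. For Pcdhgc3 the values were 27.2, 20.7, 23.8 and 17.5 against 36.8, 45.6, 52.0, 48.3 and 34.8, at -0.93 ± 0.19. Pcdhgc4, the C-type needed for neuron survival, was just outside the threshold of the fit, with 5.22, 3.67, 4.44 and 4.11 against 6.19, 8.55, 12.4, 10.4 and 6.19 at -0.98 ± 0.27, and Pcdhgc3 just inside it. Pcdhac1 was nearly absent after bulbectomy, with 2 reads over the 4 libraries against 217 over the 5 sham libraries, of which sham 4 is the deepest. Its CPM was 0.111, 0, 0.127 and 0 against 2.06, 1.16, 0.598, 1.11 and 1.15. The ratio of its pooled levels was 0.0540, where sham 4 held 184 of the 217 sham reads.

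Among the subgroups of alternate members gamma A had the lowest median. Pcdhga5 had 1.44, 1.47, 0.634 and 1.94 CPM after bulbectomy and 11.2, 6.58, 10.2, 9.43 and 5.35 after sham, at -2.59 ± 0.35. Pcdhga4 had 4.78, 2.32, 3.30 and 3.87 against 11.8, 12, 17.7, 13.9 and 9.34, at -1.82 ± 0.27. Pcdhga6 had 5.78, 4.16, 4.82 and 9.92 against 20.6, 18.9, 23.3, 16.1 and 13.4, at -1.55 ± 0.27. In these 3 the groups did not overlap. Pcdhga7 was at -1.34 ± 0.27, and Pcdhga2, Pcdhga3 and Pcdhga12, named after their values were seen, at -2.17 ± 0.44, -1.53 ± 0.35 and -1.31 ± 0.25. The median over the 11 gamma A members was -1.34. Of the 7 gamma B members Pcdhgb8 stood out at -3.03 ± 0.59, with 0.666, 0.245, 0.127 and 0.484 against 3.83, 2.66, 3.94, 4.93 and 0.839 CPM, where sham 5 came close to the bulbectomy libraries. Another gamma B member, Pcdhgb7, overlapped between the groups, with 5.22, 4.04, 6.34 and 2.78 against 4.13, 3.70, 7.17, 6.75 and 8.39 at -0.37 ± 0.32.

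The beta members, which lack the constant exons, had the median nearest to 0. It was -0.83 over 17 tested, 0 of them passed the threshold, and in 3 the groups did not overlap. Pcdhb9 had 7.11, 6.36, 6.34 and 4.72 CPM after bulbectomy and 10.3, 9.82, 8.13, 10.9 and 9.55 after sham, at -0.64 ± 0.22. Pcdhb12, named after its values were seen, was the single member above 0, at 0.01 ± 0.40. Pcdhb3 was at -0.56 ± 0.30 and Pcdhb20 at -0.70 ± 0.43, both with overlapping groups. Of the 12 alternate alpha members 2 had enough reads to be tested, Pcdha12 at -1.25 ± 0.47 and Pcdha11 at -1.20 ± 0.52. The sum over all 12 was 3.0, 4.65, 3.8 and 3.75 CPM after bulbectomy and 12.1, 4.97, 11.2, 13.5 and 10.2 after sham, without overlap, although sham 2 lay close to bulbectomy 2.

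**Figure D3:**
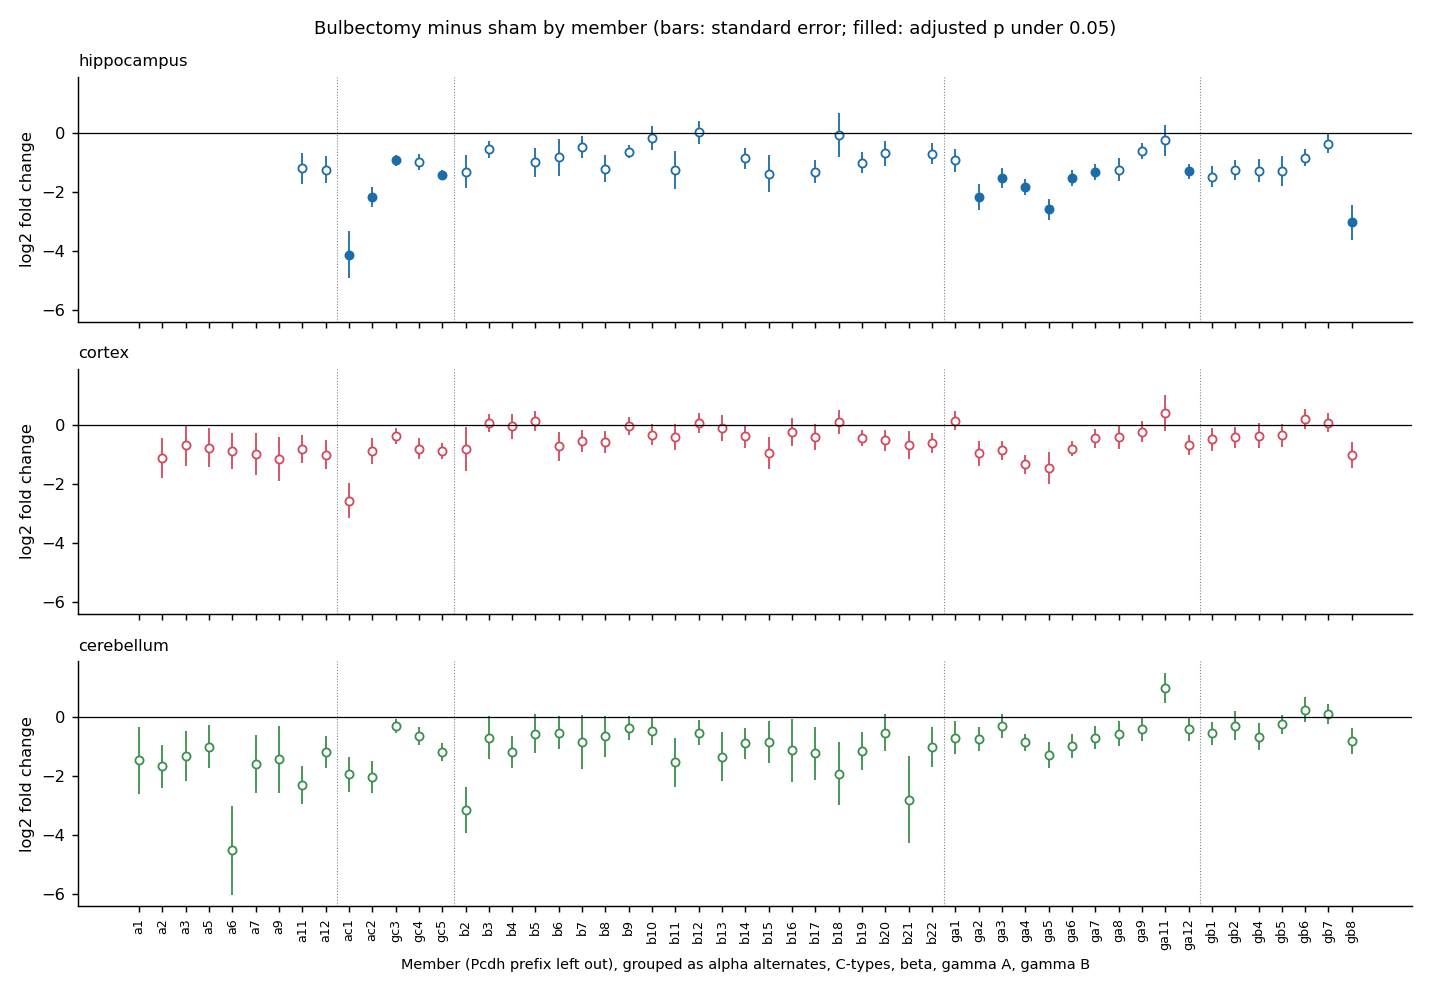
Log2 fold change of each tested member, bulbectomy minus sham, in the 3 tissues, with members grouped by subgroup along the axis. Bars are standard errors of the edgeR fit and filled points have an adjusted p under 0.05. In hippocampus, the contrast that chose the family, 12 are filled, as a description only, and 0 are filled in cortex and cerebellum.

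Other measures moved with the hippocampal groups. The slope of expression over transcript length, taken over protein-coding genes outside the family against the mean of the sham libraries of the tissue, was -0.161, -0.156, -0.182 and -0.088 log2 units per doubling of exon length in the bulbectomy libraries and 0.155, -0.145, 0.012, 0.049 and -0.070 in the sham libraries. Hippocampus sham 2, whose slope lay within the bulbectomy range and which carried striatal markers, had 283 CPM of members. In the other tissues, cerebellum sham 2 had a slope of -0.164 and 247 CPM, where the bulbectomy libraries had 237 and 236. Cortex bulbectomy 1 had a slope of 0.095 and 365 CPM. What part the slope has in these levels was not tested beyond fits with the trend removed. With a trend over length and GC content removed, the median of the members was -1.13 and 14 passed the threshold, as did 3.23% of all genes. Without hippocampus sham 1 and 2, the libraries with striatal markers, it was -0.97 and 10 passed, as did 2.48% of all genes. Calls fell to 5, 3, 7 and 4 without bulbectomy 1, 2, 3 or 4 and to 5 without sham 4, and to 7 against a fold of 1.2, each downward. Over all genes 50, 30, 69, 34, 72 and 64 were called in these fits.

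Markers of thalamus and habenula were higher in the bulbectomy hippocampus, where 4 of 11 tested were called higher (Tac2, Chrnb4, Rora and Gpr151) and 10 of 11 had positive fold changes. Their sum over 12 genes was 232 to 457 CPM after bulbectomy and 66.0 to 342 after sham. Astrocyte markers summed to 5163 to 7716 against 3368 to 5728 CPM, with 1 of 10, Sox9, called higher. Pan-neuronal markers overlapped, at 5165 to 6700 against 4595 to 6411 CPM, and 0 of 10 were called. Mitochondrial reads made up 8.33% to 10.8% after bulbectomy, 4.84% to 7.19% in sham 2 to 5 and 13.3% in sham 1. None of the genes of these lists was at 0 in either group. Rasgrf2 of 10 cortical layer markers and Reln, from the list of cerebellar granule cells but also an interneuron gene, were called lower. The part of these changes in the lower counts of the protocadherins was not tested.

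In cortex the members split by library. Bulbectomy 2 and 4 were low and bulbectomy 1 lay among the sham libraries: the summed level of the family was 365, 178 and 164 CPM in bulbectomy 1, 2 and 4 and 415, 315, 380, 350 and 333 in the sham libraries. Pcdhgc5 had 85.1, 38.8 and 35.1 CPM after bulbectomy and 114, 98.2, 106, 92.2 and 80.3 after sham. Pcdhac2 had 14.7, 3.01 and 4.39 against 18.0, 10.5, 14.8, 13 and 13. Pcdha12, the highest alternate alpha member, had 4.67, 0.875 and 1.02 against 4.22, 4.86, 5.34, 3.79 and 4.69. In each of these 3 members bulbectomy 1 lay within the sham range and the other 2 below each sham library. With all 3 bulbectomy libraries 0 of 52 members were called by edgeR (9 at an unadjusted p under 0.05), where 0.0202% of 14847 genes were. DESeq2 called 2 members, where it called 39 of 14833 genes, 9 of them lower. The 3 of smallest p were Pcdhac1 at -2.56 ± 0.61, Pcdhga4 at -1.33 ± 0.32 (edgeR adjusted p = 0.38 for each) and Pcdhgc5 at -0.89 ± 0.28 (edgeR adjusted p = 0.69). Pcdhac1 had 13 reads over the bulbectomy libraries and 145 over the sham libraries, 0.723, 0.0972 and 0.102 against 2.67, 1.75, 1.19, 2.38 and 2.38 CPM without overlap. Pcdhga4, at 6.64, 4.28 and 2.66 against 13.9, 12.1, 12.3, 11.7 and 7.50 CPM, also did not overlap. In 4 of the 52 members the bulbectomy libraries lay below each sham library, where 1.40% of genes did.

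Over the 52 members 44 had negative fold changes in cortex and the median was -0.53 against 0.01 over all genes. By subgroup the median was -0.94 over 8 alternate alpha members, -0.89 over the C-types, -0.69 over gamma A, -0.36 over gamma B and -0.40 over 21 beta members. Without bulbectomy 1, 15 members were called by edgeR, all lower, where 1.78% of 15103 genes were called lower, and the median of the members was -1.06. With a trend over length and GC content removed as well, 16 were called, all lower, where 1.66% of genes were, and the median was -0.97. Bulbectomy 1 was left out here because it stood apart in the outcome itself, so these values describe 2 libraries and do not replace the test of all 3. The 15 were Pcdha2, Pcdha11, Pcdha12, the C-types Pcdhac1, Pcdhac2, Pcdhgc4 and Pcdhgc5, the beta member Pcdhb2 and 7 gamma A members.

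Cortex bulbectomy 2 and 4 had length slopes of -0.150 and -0.183, bulbectomy 1 had 0.095 and the sham libraries -0.030 to 0.042. Markers of meningeal fibroblasts summed to 2009 to 2815 CPM after bulbectomy and 1224 to 1776 after sham, striatal markers to 609 to 872 against 472 to 593, and choroid plexus and ependymal markers to 30.2 to 42.6 against 15.2 to 22.4. None of these markers was called or at 0 in a whole group, and those of the next lists were not called either. Pan-neuronal markers were at 6256 to 9615 against 6201 to 7641 CPM. Astrocyte markers stood at 4404, 5459 and 4957 CPM in bulbectomy 1, 2 and 4 against 3780 to 4781 after sham, and interneuron markers at 1096, 2142 and 1660 against 1035 to 1292. For the astrocyte and interneuron lists bulbectomy 1 lay within the sham range and 2 and 4 above it. What part these measures have in the lower counts of bulbectomy 2 and 4 was not tested beyond the fit with the trend removed.

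**Figure D4:**
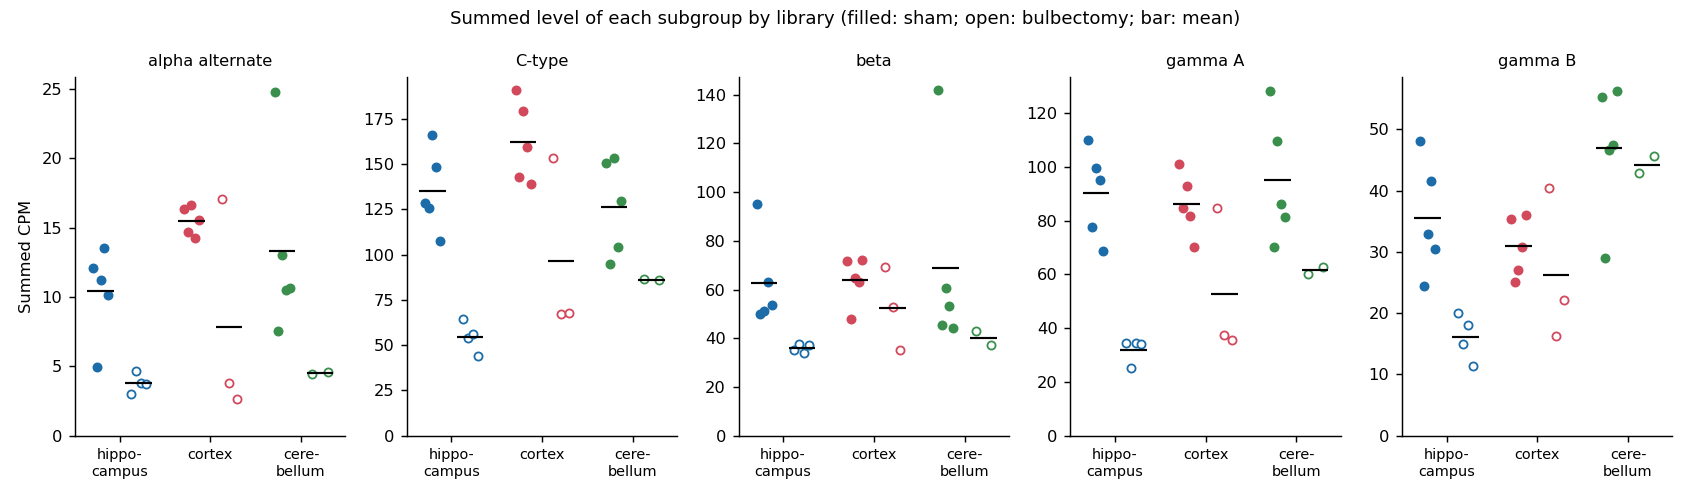
Summed CPM of the members of each subgroup in each library, by tissue. Filled points are sham libraries, open points bulbectomy libraries and bars group means; the 4 hippocampus bulbectomy libraries lie below all sham libraries of the tissue in all 5 panels, and the 3 cortex bulbectomy libraries are spread.

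In cerebellum the 2 bulbectomy libraries were close to each other. They lay below each sham library in the sums of all subgroups but gamma B. The sums were 60.1 and 62.9 CPM against 70.0 to 128 for gamma A and 43.1 and 37.1 against 44.4 to 142 for beta. For the C-types they were 86.5 and 85.8 against 94.8 to 153. The summed level of the family was 237 and 236 CPM after bulbectomy and 501, 247, 383, 302 and 323 after sham. Pcdhac2 had 4.66 and 3.79 CPM against 30.4, 10.9, 16.8, 12.8 and 12.4, and Pcdhgc5 5.3 and 5.78 against 11.1, 13, 17.7, 9.71 and 10.8. For Pcdhb2 the values were 0.215 and 0.146 against 3.13, 1.48, 1.19, 0.942 and 1.16. In all 3, which have the smallest p of the family, the groups did not overlap. Their log2 fold changes of -2.03 ± 0.54, -1.18 ± 0.31 and -3.14 ± 0.79 did not pass the adjustment (edgeR adjusted p = 0.9998 for each). Pcdhb2 had 6 reads over the bulbectomy libraries and 110 over the sham libraries. Of 53 members tested 0 were called by edgeR (9 at an unadjusted p under 0.05) and 0 by DESeq2, where 0.0131% of 15295 genes were called by edgeR.

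Of the 53 members 50 had negative fold changes in cerebellum, with a median of -0.85 where the median of all genes was -0.06. In 19 members both bulbectomy libraries lay below each sham library, where 4.92% of genes did, and in 1, Pcdhga11, both lay above, at 3.08 and 3.21 against 1.83, 1.22, 0.936, 0.942 and 2.72 CPM. Pcdhga11 was named after its values were seen. The share of all genes with both libraries above was not counted, so nothing is read from this member. The summed alternate alpha members had 4.44 and 4.57 CPM against 24.7, 7.55, 13, 10.5 and 10.7, without overlap. The gamma B members were at 42.8 and 45.6 against 55.3, 29.1, 46.7, 47.4 and 56.3, overlapping, with Pcdhgb6 at 0.26 ± 0.44 and Pcdhgb7 at 0.11 ± 0.35. Cerebellum sham 1 was the highest library of the family and had a length slope of 0.353, against -0.164 to 0.030 in the other sham libraries and -0.061 and -0.100 after bulbectomy. Without it the median of the members was -0.48 and 1 member, Pcdhac2, was called lower by edgeR, where 36 of 15186 genes (0.237%) were called, 4 of them lower. With the trend over length and GC content removed the median was -0.73 and 0 were called. Astrocyte markers summed to 7777 and 7724 CPM after bulbectomy and 5461 to 7280 after sham, with 0 of 10 called. Mitochondrial reads made up 7.35% and 7.78% after bulbectomy and 2.53% to 7.03% after sham. Both measures separated the groups, and their part in the lower counts of the members was not tested.

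**Figure D5:**
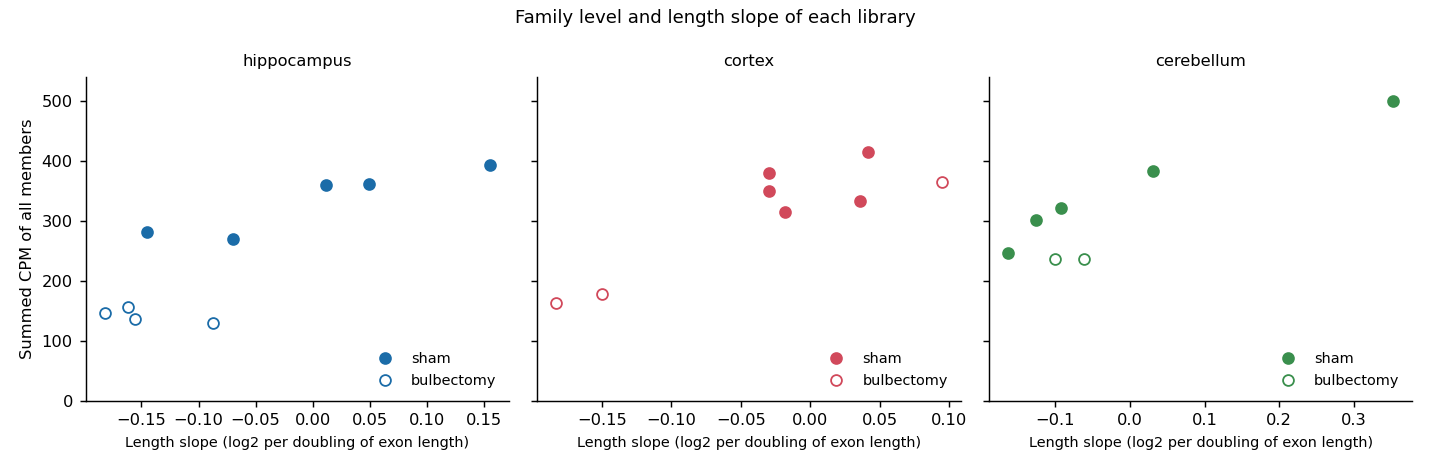
Summed CPM of all members against the length slope of each library (log2 units per doubling of exon length, over genes outside the family), by tissue. Filled points are sham and open points bulbectomy libraries. Hippocampus sham 2 has 283 CPM at a slope of -0.145, cerebellum sham 2 has 247 at -0.164 and cortex bulbectomy 1 has 365 at 0.095.

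The 12 members past the threshold in hippocampus had negative fold changes in cortex and in cerebellum too, with a median of -0.89 and -0.83, where 44 of 52 and 50 of 53 members did, with a median of -0.53 and -0.85. Whether the effect of bulbectomy differed between tissues was examined as an interaction in a fit of all 24 libraries. The interactions with hippocampus hold the contrast that chose the family, so their counts and values are a description, and only that of cortex and cerebellum is free of it. For hippocampus against cortex 0 of 53 members were called by edgeR (8 at an unadjusted p under 0.05, and 0 by DESeq2), where 0% of 16564 genes were. Against cerebellum 0 were called (7 at an unadjusted p under 0.05, 0 by DESeq2; 0% of genes), and between cortex and cerebellum 0 (1 at an unadjusted p under 0.05, 0 by DESeq2; 0% of genes). For hippocampus minus cortex the members of smallest p were Pcdha3 at -3.04 ± 1.27, Pcdhgb6 at -1.08 ± 0.47 and Pcdhgb8, and for hippocampus minus cerebellum Pcdhga3 at -1.32 ± 0.48, Pcdhga4 at -1.02 ± 0.41 and Pcdhgb8. For cortex minus cerebellum they were Pcdhb2 at 2.26 ± 1.21, Pcdhb4 at 1.11 ± 0.64 and Pcdha6, which had 1 read over the cerebellum bulbectomy libraries and 59 over the sham libraries. Pcdhb2 turned to -0.21 without cortex bulbectomy 1. Pcdhgb8 stood at -2.03 ± 0.70 for hippocampus minus cortex and -2.30 ± 0.73 for hippocampus minus cerebellum. Between cortex and cerebellum a difference of effect was not detectable with these libraries, which does not show that the effects were alike.

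Genes that act with the protocadherins were followed as lists, and 0 members of any of them were called in a bulbectomy comparison by edgeR. Of all genes tested 48.4% in hippocampus, 49.2% in cortex and 57.2% in cerebellum had negative fold changes, with medians of 0.02, 0.01 and -0.06. The cerebellar values include sham 1, which had a length slope of 0.353. In hippocampus the slopes were -0.182 to -0.088 after bulbectomy and -0.145 to 0.155 after sham. Cortex bulbectomy 2 and 4 had slopes of -0.150 and -0.183. The medians of the lists are from fits without the trend removed, and the part of the slope in them was not tested. For the promoter choice machinery, CTCF and cohesin subunits and regulators, 11 of 12 genes had negative fold changes in each tissue. Their median was -0.43 in hippocampus, -0.31 in cortex and -0.95 in cerebellum. Silencing and DNA methylation factors had medians of -0.37, -0.20 and -0.29 over 10 to 12 genes. For the cytoplasmic partners, which link the intracellular domains to kinases and the actin-regulating WAVE complex, the medians over 17 genes were -0.14, -0.12 and -0.26. The 7 shedding proteases, which cut the protocadherins at the membrane, had medians of -0.07, 0.13 and -0.03, and the 3 synaptic partners -0.03, 0.08 and -0.44. Non-clustered protocadherins had medians of -0.28, -0.02 and -0.88, classical and type II cadherins -0.47, -0.08 and -0.41, and the giant cadherins -0.58, -0.07 and -0.50. Over the clustered members the medians were -1.23 in hippocampus, which their choice fixes as low, -0.53 in cortex and -0.85 in cerebellum.

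Protein-coding genes outside the family within 500 kb of its outermost members showed no such shift of the median. Of 34 such genes 23 were tested in hippocampus, 25 in cortex and 27 in cerebellum, 0 were called after bulbectomy, and their median log2 fold changes were 0.10, 0.01 and -0.04. In hippocampus 14 were above 0 and 9 below. The 34 include Gm42416, Gm37013 and Gm37388, which run through the clusters and share exon bases with members.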

How the data were processed

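Each library has a deposited table of raw read counts by Ensembl identifier. Trimmomatic, STAR and featureCounts and the build mm10 were used by the authors, per the submitters' processing notes. The sources used here do not give versions, annotation or strand setting. Per the labels' protocols, libraries were made from polyA RNA with a directional kit. Assigned reads per library, 3255661 to 138963332, set the precision of the low members. Reads overlapping no gene (2.62% to 9.22%) or more than 1 gene (3.92% to 5.08%) were left out of library sizes.

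After filterByExpr and TMM scaling, all genes were tested together with the quasi-likelihood test of edgeR (R 4.3.3, edgeR 4.0.16), Benjamini-Hochberg adjusted, two-sided, with calls at an adjusted p under 0.05. Bulbectomy was compared with sham within each tissue, sham tissues in 1 fit of 15 libraries, and interactions in 1 fit of 24. Per-library CPM uses TMM factors over all 24 libraries. The trend fit removes natural splines (4 df) of log2 exon length and GC content. The length slope is the slope of a library's deviation from the sham mean of its tissue over log2 exon length, with GC content in the same regression and members left out. Scripts were tested on simulated data. Alternatives were DESeq2 1.42.0, voom (limma 3.58.1), other scalings and filters, a fold of 1.2, the trend fit, a replicate block, and each library left out.

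Members, lists and tests were chosen with earlier results of these data known. Named are the C-types, the 3 highest members of each other subgroup per kb of exon unshared on the same strand over the sham libraries, and per comparison up to 6 of smallest p in each direction among those called or, with none called, the 3 of smallest p. Same-numbered libraries pair where each pair's deviations correlate above 0.1 over 3 or more pairs. This held between sham hippocampus and cerebellum (r of 0.23 to 0.40 over 5 numbers) and not in the other comparisons.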

Additional observations from a re-analysis of the deposited data

Results flagged for a closer look

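Dixon's test on the C-types and the other members named by rule and on subgroup sums picked out 9 of 120 groups of 4 or 5 libraries, where chance gives about 1 in 20. In 6 of the 9 the library was cerebellum sham 1, the highest of its group. Its level there was 2.29 CPM for Pcdha6 (0.260 to 0.811 in the other 4), 4.66 for Pcdha11 (1.27 to 2.25), 3.13 for Pcdhb2 (0.942 to 1.48), 6.18 for Pcdhb3 (0.984 to 2.46) and 14.7 for Pcdhb9 (7.70 to 9.11). The summed beta members stood at 141.7 CPM there, against 44.4 to 60.5.

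Hippocampus sham 1, the library with the fewest reads, had 95.2 CPM of summed beta members against 50.1 to 63.1 in the other 4. Cortex sham 5 had 8.84 CPM of Pcdhgb6 against 4.42 to 5.66. Hippocampus bulbectomy 2 was the lowest of its group for the summed gamma A members, at 25.2 CPM against 34.0 to 34.5.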

How the results depend on the processing

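The 12 members past the threshold in hippocampus became 7 against a fold of 1.2, 7 with the replicate block and 3 to 12 when each library was left out. Over all genes 217 were called in the main fit, and 64, 76 and 30 to 477 in these fits. In cortex, where 0 were called, DESeq2 called 2, voom 6, the fit without a low-count filter 1, and leaving out each library 0 to 15. Over all genes these fits called 39, 252, 24 and 1 to 573. Leaving out bulbectomy 1 and removing the trend together, an alternative added after seeing the data, gave 16. In cerebellum voom called 1 and leaving out each sham library 0 to 1, where 67 and 0 to 36 of all genes were called. Between sham cortex and hippocampus, voom, the trend fit and the replicate block each called 1, where 1536, 846 and 765 genes were called. Between sham cerebellum and hippocampus (4 called) voom called 10, the trend fit 8, the replicate block 8 and leaving out each library 3 to 8. Of 15142 genes the first 3 of these fits called 5981, 5864 and 5304, and leaving out each library called 3727 to 6027 genes. Between sham cerebellum and cortex (7 called) voom called 19, a fold of 1.2 left 4, the replicate block gave 10, and leaving out each library 4 to 13. There the genes called numbered 9030, 4327, 6517 and 4590 to 7743. The replicate block called 0 in the cortex, cerebellum and interaction comparisons, and each alternative run called 0 in the 3 interactions. The difference in effect of Pcdhb2 between cortex and cerebellum ranged from -0.21 to 2.80 when each library was left out, and was reversed without cortex bulbectomy 1. For single members, 843 values kept their side of the threshold or stayed within the spread, 54 lost a call, 17 gained one, 3 levels per kb moved and 1 reversed. The cause of these changes was not tested. The numbers pair sham hippocampus with cerebellum; elsewhere libraries share a number only. Leaving out 1 cerebellum bulbectomy library leaves 1, assumed to vary like the sham group. Low depth limits the alternate alpha members and Pcdhac1 most.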

Other observations

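Certain members were extreme under the same sham number in all 3 tissues, a pattern chosen after seeing the values and not tested. Sham 1 was the highest of the 5 sham libraries in each tissue for 13 members, among them Pcdhac1, Pcdhac2, Pcdhb7, Pcdhb20, Pcdhga3, Pcdhga8 and Pcdhgb4. Sham 3 was highest in each tissue for Pcdhga6 and Pcdhgc4, and sham 5 for Pcdhgb7 and Pcdhga11. Sham 2 was lowest in each tissue for 5 members, among them Pcdhac2 and Pcdhgb7, sham 5 for Pcdhga5 and Pcdhga6, and sham 4 for Pcdhb12. Sham 1 also had the highest length slope of the 5 sham libraries in each tissue, at 0.155, 0.042 and 0.353 in hippocampus, cortex and cerebellum. Sham 2 had the lowest in hippocampus (-0.145) and cerebellum (-0.164). The part of the slope in this pattern was not tested, and the share of all genes showing it was not counted. The labels do not say whether libraries of the same number came from the same animal.

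The spread between sham libraries differed by subgroup and tissue. The median coefficient of variation of the gamma A members in hippocampus, cortex and cerebellum was 24.9%, 16.1% and 31.5%. For the beta members it was 42.7%, 28.7% and 64.0%, and for all genes of 1 to 20 CPM 33.8%, 23.2% and 38.9%. In cerebellum the summed beta members were at 141.7 CPM in sham 1 and at 44.4 to 60.5 in the other 4.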
